A study of Mus musculus with 40 samples.

Results

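The genes described are the protein-coding mouse genes named Zfp (zinc finger protein) with a number from 600 to 999 and nothing after it. Of 56980 genes in the count table, 171 met this rule, and 138 of them had enough reads to be tested, among 17880 tested genes in all. The name was matched through the Ensembl gene identifier. The set was chosen by measured values: Zfp738 and Zfp950 had already been seen to be low in adolescent mice given antibiotics and saline. That comparison is therefore given as a description, and nothing is supported by it. Other comparisons that use its libraries are given for these 2 genes as descriptions too.

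RNA with a poly(A) tail was sequenced from the brain, with the medial prefrontal cortex named in the study's title, of female wild-type C57BL/6J mice, an inbred laboratory strain. Mice started as adolescents on postnatal day 25 or as adults on postnatal day 55, and drank water or received oral antibiotics (which ones is not stated in the labels). Each then had 5 days of subcutaneous injections, of saline or of 15 mg/kg of the opioid morphine, which gave 8 groups of 5 libraries. All groups were female, wild type and injected, so that the saline groups carry the handling too. The labels do not say that the libraries of a group came from separate mice, so p-values measure the spread between these libraries only. Levels are given as CPM, a gene's count relative to its library's total after edgeR's TMM scaling. Libraries held 8636712 to 12098769 counts. The 6 excitatory neuron markers summed to 6030 to 7480 CPM in every library, and no marker of any of the 9 cell type lists was at 0.

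Zinc fingers of the C2H2 type are short folds held together by a zinc ion, and a row of them lets a protein recognise a stretch of DNA. Many of these proteins also carry a KRAB (Krüppel-associated box) domain, which binds the corepressor Trim28. Trim28 in turn gathers the histone methyltransferase Setdb1 and other silencing enzymes, and the best-known targets are transposable elements and imprinted genes. KRAB zinc finger genes arose by repeated duplication and often lie side by side, so that close copies share much of their sequence.

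The upstream sequences of 4 members named in the findings below are shown first, and no result on levels rests on them. Zfp950 and Zfp738 are the members whose low values in adolescents on antibiotics chose the set, and Zfp777 and Zfp956 lie near each other on chromosome 6 and were both higher in adolescents given antibiotics and morphine. Each is the 250 bases before a RefSeq transcription start (build GRCm38.p6), 5′ to 3′ on the strand of the gene. Zfp950 is read from chr19:61140841-61141090 on the minus strand, Zfp738 from chr13:67683513-67683762 on the minus strand, Zfp777 from chr6:48047795-48048044 on the minus strand and Zfp956 from chr6:47953140-47953389 on the plus strand. Capitals mark 3 motifs on either strand: the CCAAT box (CCAAT or ATTGG), the GC box (GGGCGG or CCGCCC) and the core of the cyclic AMP response element (TGACG or CGTCA).
Zfp950: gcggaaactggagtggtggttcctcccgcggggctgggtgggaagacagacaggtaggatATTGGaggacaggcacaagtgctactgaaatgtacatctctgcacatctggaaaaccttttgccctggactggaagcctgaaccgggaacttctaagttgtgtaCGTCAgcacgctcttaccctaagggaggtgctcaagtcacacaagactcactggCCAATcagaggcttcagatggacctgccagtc
Zfp738: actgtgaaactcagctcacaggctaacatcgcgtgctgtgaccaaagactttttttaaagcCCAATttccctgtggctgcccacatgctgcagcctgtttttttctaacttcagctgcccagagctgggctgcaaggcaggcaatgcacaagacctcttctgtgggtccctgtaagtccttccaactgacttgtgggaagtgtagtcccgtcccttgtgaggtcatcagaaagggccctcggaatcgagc
Zfp777: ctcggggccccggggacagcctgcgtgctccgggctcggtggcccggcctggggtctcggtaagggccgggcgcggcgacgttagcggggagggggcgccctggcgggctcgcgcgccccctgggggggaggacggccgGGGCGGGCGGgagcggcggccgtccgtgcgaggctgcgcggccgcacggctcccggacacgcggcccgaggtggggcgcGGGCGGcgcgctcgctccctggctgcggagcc
Zfp956: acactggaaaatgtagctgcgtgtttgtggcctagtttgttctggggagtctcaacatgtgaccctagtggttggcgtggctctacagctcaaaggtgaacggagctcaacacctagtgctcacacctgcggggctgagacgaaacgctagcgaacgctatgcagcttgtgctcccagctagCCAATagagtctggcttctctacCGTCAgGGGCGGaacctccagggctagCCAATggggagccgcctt

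The Zfp777 window was 84.0% G and C with 42 CG pairs, and held 3 matches to the GC box, of which a pair overlap, and none to the CCAAT box. The other windows were less rich. Zfp950 had 54.0% G and C and 6 CG pairs, Zfp738 had 52.4% and 5, and Zfp956 had 56.4% and 11. The CCAAT box was found 2 times each for Zfp950 and Zfp956 and 1 time for Zfp738. RefSeq windows were found for 144 of the 171 members, as 173 windows, since a gene can have several starts. At least 1 CCAAT box stood in 57.8% of these windows against 33.8% of the 32851 windows of all genes in the RefSeq table. The GC box stood in 39.3% against 32.7%, and the TGACG core in 26.0% against 17.8%. A match is a string of letters and not evidence that a factor binds there.

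Most of these genes encode long rows of fingers and were read at modest levels. A KRAB A box, recognised by a pattern in the translated longest coding transcript, was found in 114 of 171 members, and the median number of C2H2 fingers was 11, with a range from 0 to 33. In 7 members the pattern found no finger. A KRAB A box that departs from the pattern, or lies only in another transcript, is counted here as absent. The median of the mean level over 40 libraries was 12.1 CPM among the 138 tested members and 15.9 CPM among all tested genes, and 61.6% of the tested members lay below the latter. Per kilobase of exon, the 87 tested members with a KRAB A box had a median of 2.16 CPM, the 51 without had 4.06 CPM and all tested genes had 4.47 CPM. Zfp706, which encodes a small protein of 76 residues with 1 finger, was the most abundant at 153 CPM, or 30.6 CPM per kilobase. Zfp871 followed at 117 CPM (10.5 per kilobase), then Zfp651 at 108 (15.3), Zfp704 at 99.2 (6.5) and Zfp664 at 89.9 (11.5), and of these 5 only Zfp871 had a KRAB A box. Zfp808, Zfp992 and Zfp976 were the lowest of the tested members, at 0.588, 0.608 and 0.795 CPM. In these low genes 3 counts in 1 library stand for 0.248 to 0.347 CPM, so their fold changes are poorly determined.

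Neighbouring copies were the ones most often left untested. With at most 5 other protein-coding genes allowed between members, 110 of the 171 fell into 26 runs of neighbours and 61 stood alone. Among the 33 untested members, 27 had a KRAB A box, and a median of 55.7% of the 50-base windows of their transcripts was also held by another gene, against 0.65% in the tested members. A run of 17 KRAB members on chromosome 4, from Zfp990 to Zfp933, had 5 tested members and a median sharing of 67.9%, and a run of 4 on chromosome 2, from Zfp968 to Zfp966, had none and 95.9%. No source used here says how reads that match several genes were counted, so the low values of such members are uncertain. An annotated gene on the opposite strand overlaps the gene span, introns included, of 59 of the 171 members. Whether exons of such pairs overlap was not examined, and no source used here gives the strand setting of the counting. It is therefore uncertain whether reads of such pairs can be told apart.

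**Figure D1:**
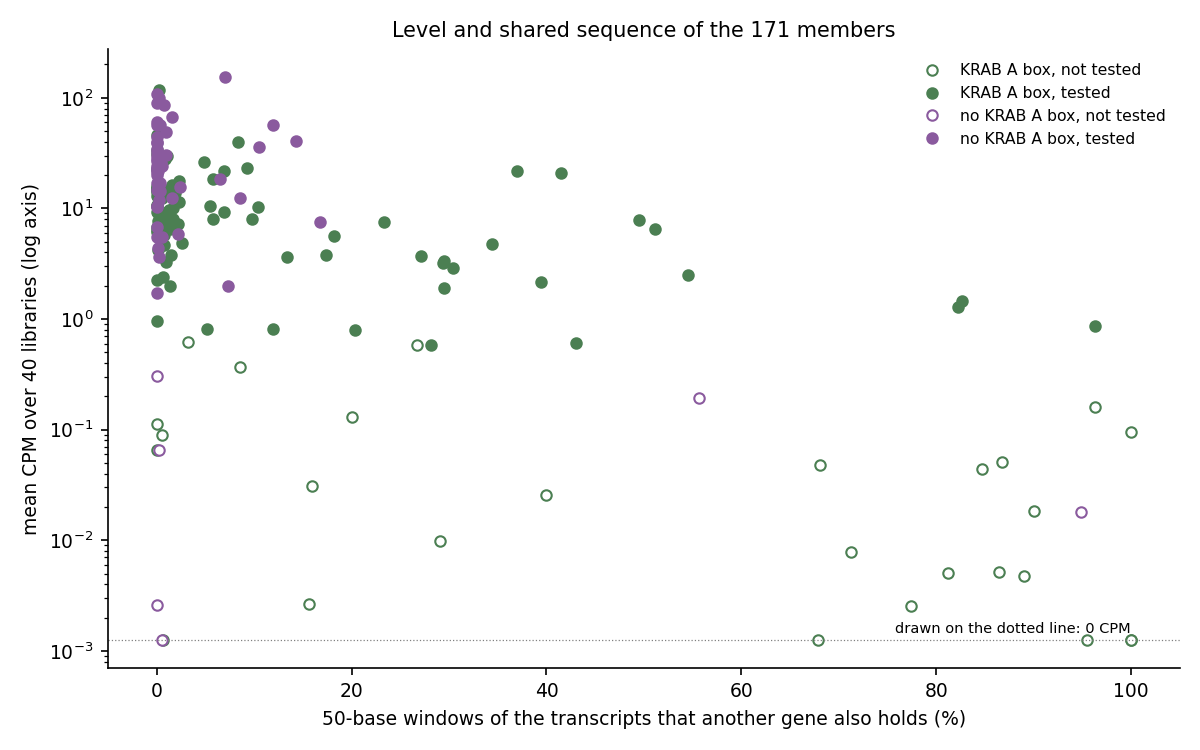
Each point is 1 of the 171 members, with the share of its 50-base transcript windows that another gene also holds on the horizontal axis (%) and its mean CPM over 40 libraries on the vertical log axis, green with and purple without a KRAB A box, filled where tested, and on the dotted line where the level was 0. Untested members, with a median of 55.7% shared windows, sit low and mostly to the right, while tested members have a median of 0.65%.

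The first comparison asked what antibiotics alone did in adolescents, and it is the one that brought these genes to attention. Zfp950, a KRAB protein with 17 fingers, was read at 31.0, 34.8, 29.4, 24.8 and 36.8 CPM in the 5 water-saline libraries and at 22.4, 22.2, 22.8, 21.4 and 22.0 CPM in the 5 antibiotics-saline libraries. The antibiotics libraries all lay below the lowest water library and within a narrow band. The log2 fold change was -0.50 ± 0.10 (SE). Zfp738, a KRAB protein with 20 fingers, was read at 40.5, 46.8, 41.5, 38.0 and 48.7 CPM on water and at 30.5, 30.5, 33.5, 35.7 and 34.5 CPM on antibiotics, with a log2 fold change of -0.39 ± 0.08 (SE). Here too the groups did not overlap. Elsewhere a gene is said to be called where its adjusted p over all genes tested was under 0.05. Here that threshold is how these 2 of 138 members were chosen and is no test of them. It was passed by 0.0391% of all tested genes, 0.0224% higher and 0.0168% lower, and nothing is read from these shares. Groups did not overlap in 3 of 138 members, the third with higher values on antibiotics, beside 1.81% of all tested genes. The next members by p, well outside the threshold, were Zfp703, at 0.20 ± 0.06, and Zfp871, at -0.26 ± 0.08. Larger but less precise negative values were seen in Zfp984 (-0.58 ± 0.25) and Zfp991 (-0.51 ± 0.38), named after their values were seen. The other members did not lean one way, since 65 of 138 fold changes were positive and their median was -0.01, against 0.00 over all tested genes. The 6 astrocyte, 6 oligodendrocyte, 6 oligodendrocyte precursor and 6 microglia markers all had negative values here, with medians of -0.16, -0.18, -0.12 and -0.18 and none called, and their part in the result was not tested. When only these groups were fitted the threshold chose neither gene, and the same held in 7 of 10 fits without 1 library, namely water replicate 2 or 5 or any antibiotics library.

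The level of Zfp950 over the 8 groups ran, from low to high, from adolescents on antibiotics and morphine (17.8 ± 2.84 CPM, SD, n = 5) and on antibiotics and saline (22.2 ± 0.514) to adults on antibiotics and morphine (27.7 ± 3.29), adolescents on water and morphine (28.7 ± 3.79), adults on antibiotics and saline (30.6 ± 4.18), adolescents on water and saline (31.4 ± 4.67), adults on water and saline (32.2 ± 3.17) and adults on water and morphine (35.1 ± 0.866). From adults on antibiotics and morphine up to adults on water and saline, neighbours in this order differed by less than their SDs. Zfp738 was lowest in the same 2 adolescent antibiotics groups, at 33 ± 2.37 with saline and 33.7 ± 1.08 CPM with morphine, which do not differ beyond their spread, and lay between 39.3 ± 2.13 and 45.2 ± 5.57 CPM in the other 6 (SD, n = 5). Over the 8 group means the Spearman correlation of Zfp950 with Zfp738 was 0.74, a description of 8 points that include the groups that chose them. By the same measure the tested genes most like Zfp950 included mt-Tq, Scd2 and Smarca4 (1.00 each), and those most like Zfp738 included Gm2824, Rassf2 and Gpbp1l1 (0.98 each). With 8 points and 17880 genes such values are tied or nearly so, and 4 genes stood at or above the value of the last named for Zfp950 and 10 for Zfp738.

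**Figure D2:**
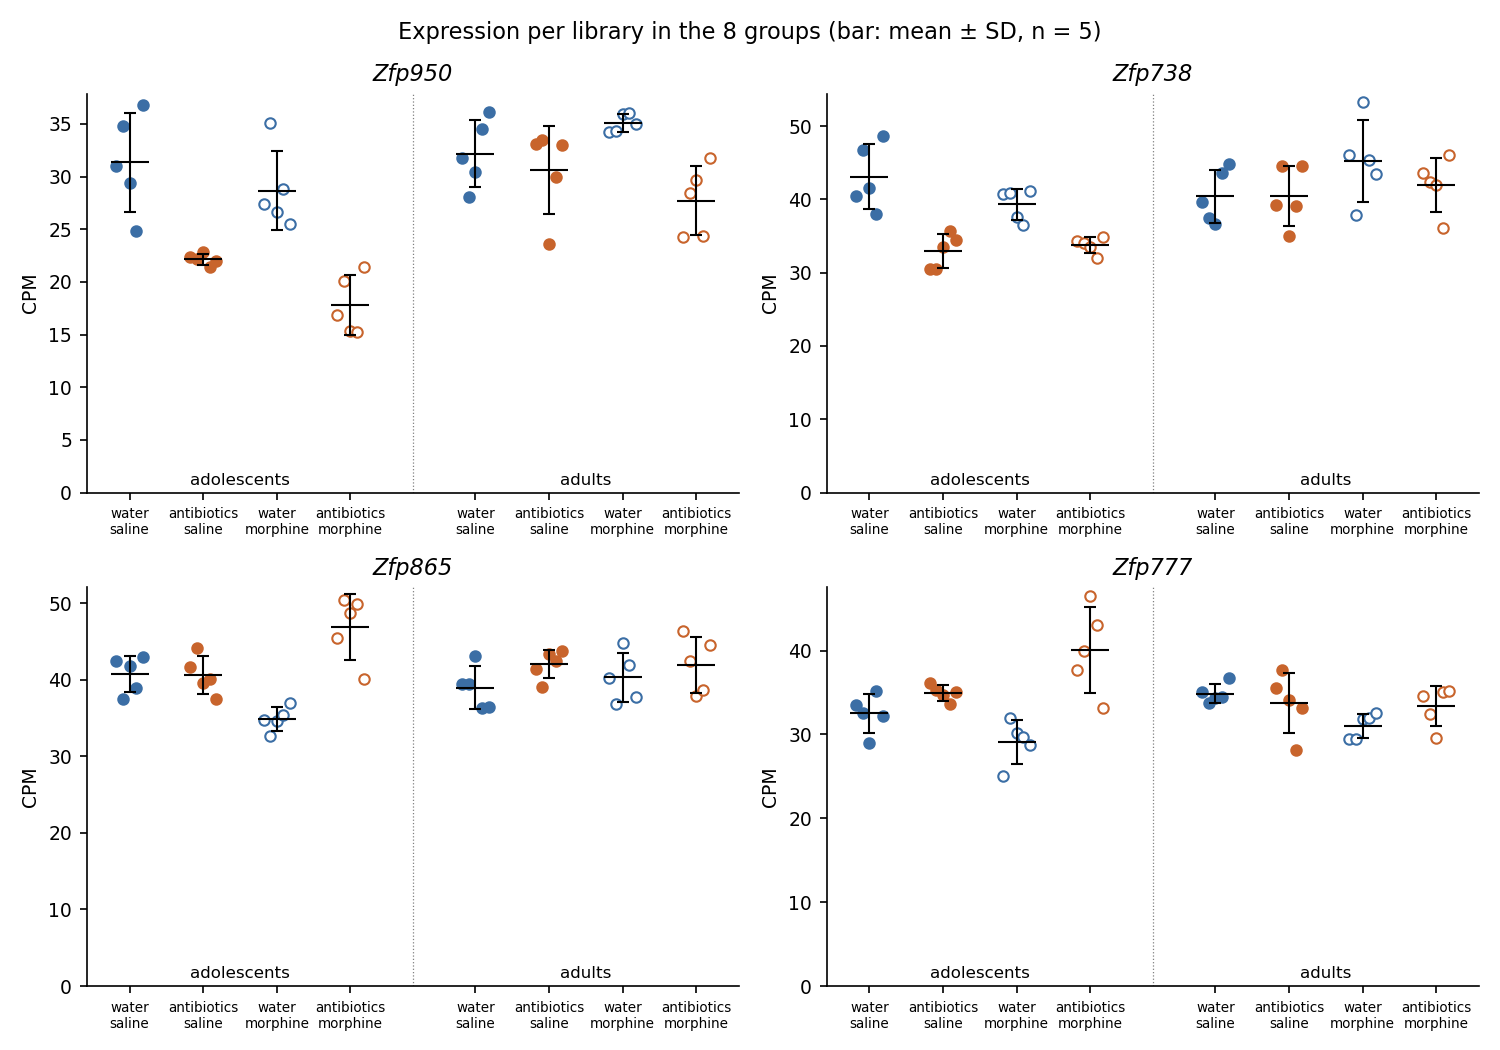
CPM of Zfp950, Zfp738, Zfp865 and Zfp777 (vertical axes, from 0) in each of the 40 libraries, by group, with bars for the mean ± SD (n = 5), blue for water, orange for antibiotics, filled for saline and open for morphine. In adolescents on antibiotics Zfp950 sits at 15.2 to 22.8 CPM, below the adolescent water libraries at 24.8 to 36.8, while Zfp865 and Zfp777 are highest on average in adolescents given antibiotics and morphine. The saline libraries chose Zfp950 and Zfp738, so that part is a description. The morphine values of Zfp950 are uncertain through its overlap with Grk5.

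In morphine-injected adolescents, a comparison that shares no library with the first, 13 members differed between antibiotics and water, 10 higher and 3 lower. Zfp950 had the smallest p-value of all members. It was read at 27.4, 35.1, 26.6, 28.8 and 25.5 CPM on water and at 16.9, 20.1, 15.3, 15.2 and 21.4 CPM on antibiotics, so that the groups did not overlap. It fell by 0.69 ± 0.10 (SE) on the log2 scale, or 1.62-fold (edgeR adjusted p = 1.26e-05). Zfp738 was read at 40.7, 40.8, 37.6, 36.5 and 41.1 CPM on water and at 34.3, 34.1, 33.5, 32.0 and 34.8 CPM on antibiotics. Its groups did not overlap either, but at -0.22 ± 0.08 (SE) it did not pass (edgeR adjusted p = 0.077). The 13 of 138 called members are 9.42%, against 7.56% of all tested genes, of which 3.54% were higher and 4.02% lower.

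The gene span of Zfp950 overlaps that of Grk5, a kinase of G protein-coupled receptors, on the other strand. Grk5 had a log2 fold change of -0.07 ± 0.11 in the saline comparison and of -0.62 ± 0.11 (SE; edgeR adjusted p = 0.000452) under morphine. Grk5 was read at 39 ± 2.74 CPM on water and 25.4 ± 5.6 CPM on antibiotics under morphine (SD, n = 5). In saline Grk5 stood at 38.5 ± 2.61 CPM on water and 36.6 ± 2.6 CPM on antibiotics. Whether exons of this pair overlap was not examined, and the strand setting is not given. The value of Zfp950 under morphine is therefore uncertain, and the part of Grk5 in it was not tested. The genes that overlap Zfp738, Gm48095 and Gm26587, had log2 fold changes of -0.30 ± 0.21 and -0.30 ± 0.23 in saline and of -0.27 ± 0.21 and -0.14 ± 0.23 under morphine.

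Among the members that rose, Zfp865, with 20 fingers and no KRAB A box, was read at 34.7, 32.6, 34.6, 35.4 and 37.0 CPM on water and at 45.4, 50.4, 48.7, 49.9 and 40.1 CPM on antibiotics. Every antibiotics library exceeded every water library. It rose by 0.43 ± 0.07 (SE; edgeR adjusted p = 5.7e-05), and Ccdc106, which overlaps it, rose by 0.40 ± 0.09 (0.00342). Zfp777, with 9 fingers and a KRAB A box, was read at 25.0, 31.9, 30.2, 29.7 and 28.7 CPM on water and at 37.7, 39.9, 46.5, 43.0 and 33.1 CPM on antibiotics, again without overlap. It overlaps Gm45738 and Gm24563, of which 1 is on the other strand, and rose by 0.46 ± 0.08 (SE; edgeR adjusted p = 7.27e-05). Zfp956, with 6 fingers and no KRAB A box, was read at 16.9, 19.0, 17.0, 17.6 and 15.3 CPM on water and at 22.6, 26.9, 25.5, 23.9 and 18.3 CPM on antibiotics. Here the lowest antibiotics library lay below the highest water library. It rose by 0.45 ± 0.10 (SE; edgeR adjusted p = 0.00299), and overlaps Zfp783, a gene on the same strand.

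Zfp777 and Zfp956 belong to a run of 4 members on chromosome 6, whose upstream windows are shown above for this pair. Zfp786, a KRAB protein in the same run, had a log2 fold change of 0.38 ± 0.19 (edgeR adjusted p = 0.211), and Zfp746, a repressor that is a substrate of the ubiquitin ligase parkin, of 0.12 ± 0.08 (0.358). All 4 values were positive, with a median of 0.41. On chromosome 8 the 4 members of the run from Zfp709 to Zfp961 had negative values with a median of -0.27 and none was called. Its member nearest to the threshold was Zfp882, at -0.47 ± 0.16 (edgeR adjusted p = 0.0505). Both runs are named after their values were seen. Among the other runs of 4 or more members, the median ran from -0.29 (Zfp970 to Zfp931, chromosome 2) to 0.13 (Zfp653 to Zfp810, chromosome 9), and the run from Zfp771 to Zfp689 on chromosome 7 had 6 of 6 positive values with a median of 0.08. Little sequence was shared in the chromosome 6 run (median 0.1% of windows) and in that on chromosome 8 (2.4%).

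Zfp687, a chromatin protein found with Zmynd8 and Zfp592, rose by 0.34 ± 0.08 (SE; edgeR adjusted p = 0.00426). Its values were 35.5, 29.2, 27.2, 33.1 and 31.7 CPM on water and 38.8, 44.8, 42.6, 41.7 and 30.8 CPM on antibiotics, and the groups overlapped through the last library. Zfp740 rose by 0.29 ± 0.06 (edgeR adjusted p = 0.00265), from 52.9 ± 2.2 to 64.8 ± 5.7 CPM (SD, n = 5). It overlaps Csad on the other strand, which had a log2 fold change of -0.02 ± 0.09. Zfp963 had the largest fold change of the called members, 1.18 ± 0.31 (SE; edgeR adjusted p = 0.0129), at a low level. It was read at 2.42, 1.45, 0.315, 1.4 and 1.29 CPM on water and at 3.05, 4.63, 3.32, 3.23 and 1.71 CPM on antibiotics, 39.4% of its windows are shared with another gene, and it was not called without water replicate 3 or without antibiotics replicate 2. Zfp638, which silences incoming retroviral DNA together with the HUSH complex, fell by 0.30 ± 0.07 (SE; edgeR adjusted p = 0.00378). It was read at 92.4, 97.6, 85.1, 77.6 and 98.1 CPM on water and at 72.4, 74.9, 72.1, 68.2 and 78.5 CPM on antibiotics, so that only the highest antibiotics library overlapped the water range. The remaining 5 called members, named here after their values were seen, were Zfp810 (0.46 ± 0.12), Zfp641 (0.36 ± 0.11), Zfp639 (0.31 ± 0.09) and Zfp651 (0.21 ± 0.06), which rose, and Zfp931 (-0.52 ± 0.15), which fell.

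Members with and without a KRAB A box were called in both directions. Of 87 tested KRAB members, 4 were higher and 2 lower, with a median log2 fold change of -0.03. Of 51 without the box, 6 were higher and 1 lower, with a median of 0.06. Over all 138 the median was 0.01 with quartiles of -0.16 and 0.15, and over all tested genes it was -0.01 with quartiles of -0.14 and 0.14. The 187 tested genes numbered Zfp1 to Zfp599 had 7 higher and 3 lower, with a median of 0.02. In 9 members the antibiotics and water libraries did not overlap, which is 6.52% against 5.92% of all tested genes. The summed level of all 171 members was 2654 ± 79.2 CPM on water and 2678 ± 31.4 CPM on antibiotics (SD, n = 5), so the difference was smaller than the spread.

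The silencing partners of KRAB proteins were looked at through a list of 30 symbols, of which 28 were tested. Trim28, the corepressor itself, rose by 0.23 ± 0.06 (SE; edgeR adjusted p = 0.0103), and Fam208a, the older symbol of the HUSH subunit Tasor, fell by 0.22 ± 0.07 (0.035). The other 26 were not called, and the median of the list was 0.02. Over all tested genes 7.56% were called in this comparison, and nothing is read from the count of called partners.

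In this comparison markers of other cells and of RNA make-up moved as well. The 6 oligodendrocyte markers all had positive fold changes with none called, and their summed level was 1180 to 1440 CPM on water and 1270 to 1970 CPM on antibiotics. Of 6 nuclear-retained RNAs, which can mark a shift in the RNA recovered, Malat1 rose by 0.75 ± 0.23 (edgeR adjusted p = 0.0362), and the list summed to 4980 to 7160 CPM on water and 5200 to 9760 CPM on antibiotics. The excitatory neuron marker Neurod6 (-0.55 ± 0.13) and the astrocyte marker Aqp4 (-0.42 ± 0.12) fell, and the striatal neuron marker Ppp1r1b (0.49 ± 0.09) rose. These 3 were the called cell type markers, and the other 5 of each of their lists were not called. The summed excitatory markers were 6650 ± 101 CPM on water and 6680 ± 205 CPM on antibiotics, the astrocyte markers 1500 ± 99.7 and 1430 ± 117 CPM, and the striatal markers 125 ± 4.43 and 143 ± 5.57 CPM (SD, n = 5). Their part in the results for the zinc finger genes was not tested. In bulk tissue, fewer cells of a type and less RNA per cell cannot be told apart. Without antibiotics-morphine replicate 5, the number of members called in this comparison was 21. Over all tested genes the fits without 1 library called 634 to 2263, against 1351 in the main fit. Nothing is read from the member count. With 6 surrogate variables, of which the groups themselves accounted for 15% to 55% of the variance, 0 members and 0 of all genes were called. With 3, a number chosen after the data were seen, 11 members were called, 7 of them among the 13. That count stands without the share over all tested genes, and nothing is read from it.

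**Figure D3:**
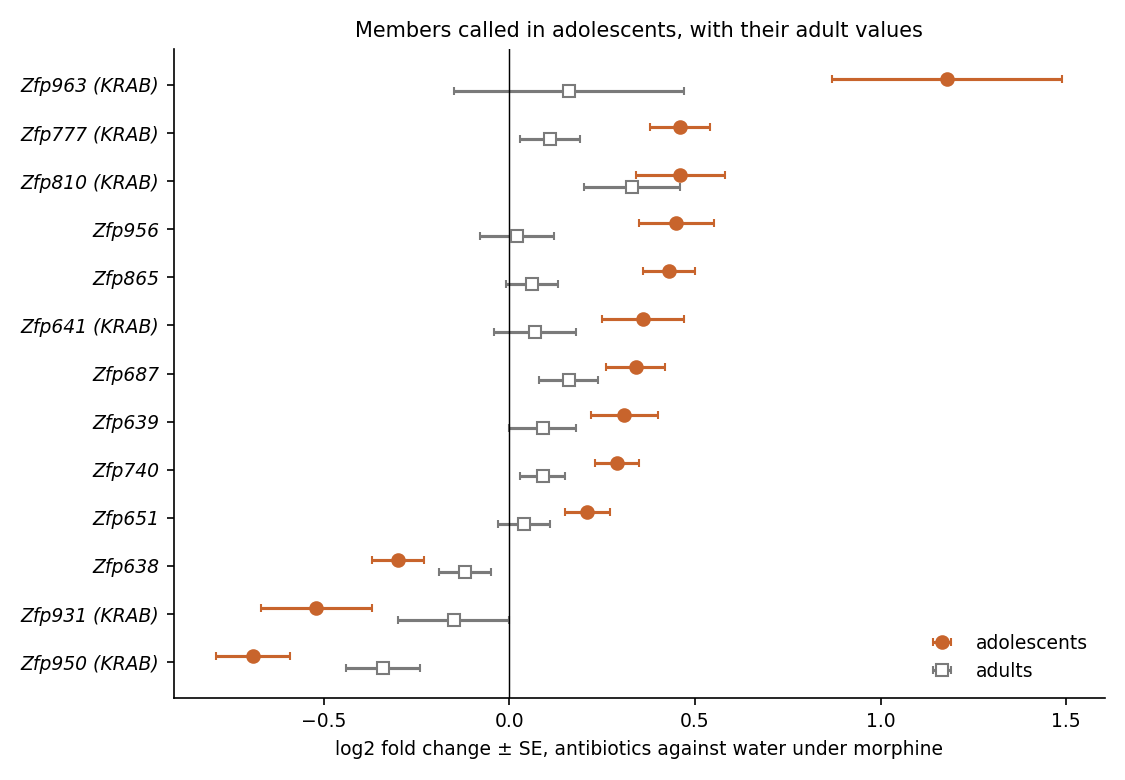
Log2 fold change ± SE (horizontal axis) of antibiotics against water under morphine for the 13 members called in adolescents (orange circles), with the values of the same members in adults (open grey squares). The adolescent values run from -0.69 for Zfp950 to 1.18 for Zfp963, and the adult values have the same sign and are all nearer to 0. The members were picked by their adolescent values, which by itself favors smaller adult values. No age difference is read from the figure.

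In adults edgeR called 0 members for antibiotics under morphine, and 0.028% of all tested genes. An unadjusted p under 0.05 was seen in 14 of 138 members, and DESeq2 called 0. Such unadjusted counts, here and below, stand without the share over all tested genes, and nothing is read from them. Groups did not overlap in 6 members, 4 higher and 2 lower, or 4.35% against 1.44% of all tested genes. Zfp950 was read at 34.2, 34.3, 35.9, 36.0 and 35.0 CPM on water and at 24.3, 28.4, 29.7, 24.4 and 31.8 CPM on antibiotics, without overlap, with a log2 fold change of -0.34 ± 0.10 (SE; edgeR adjusted p = 0.236). Zfp746 was read at 24.4, 28.4, 23.9, 23.1 and 26.1 CPM on water and at 28.5, 32.6, 31.5, 31.2 and 29.4 CPM on antibiotics, also without overlap, with a log2 fold change of 0.28 ± 0.08 (0.232). With 3 surrogate variables 1 member was called, Zfp950 at -0.39 (edgeR adjusted p = 0.0384). Zfp738 stood at -0.11 ± 0.08. The test of the difference between the ages (adult effect minus adolescent effect) called 0 members, where edgeR called 0.00559% of all tested genes. DESeq2 called 0 too, and 12 of 138 had an unadjusted p under 0.05. Zfp865 had the smallest p among members, at -0.37 ± 0.10 (edgeR adjusted p = 0.716), and Zfp950 stood at 0.35 ± 0.14 (0.862). An age difference of the antibiotics effect under morphine was therefore not shown for any member. The age difference of the antibiotics effect in saline was not tested.

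Antibiotics alone in adults called 0 members and 0.0503% of all tested genes with edgeR. DESeq2 called 0, and 14 of 138 members had an unadjusted p under 0.05. Groups did not overlap in 1 of 138 members, beside 1.77% of all tested genes. Zfp950 was read at 31.8, 28.1, 30.4, 34.5 and 36.1 CPM on water and at 33.1, 33.5, 23.6, 30.0 and 33.0 CPM on antibiotics, and Zfp738 at 39.6, 37.5, 36.6, 43.6 and 44.8 CPM on water and at 39.2, 44.6, 35.0, 39.1 and 44.6 CPM on antibiotics. In both genes the groups overlapped throughout. The log2 fold changes were -0.07 ± 0.10 and 0.01 ± 0.08 (SE), and the sign of each turned in 1 or more alternative fits. The members with the smallest p were Zfp961, at -0.44 ± 0.14 (edgeR adjusted p = 0.239), and Zfp808, at 1.60 ± 0.55 (0.281), which reached at most 1.47 CPM in any of the 40 libraries.

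Morphine changed few of these genes. In adolescents on water, a comparison that shares its water-saline libraries with the first one, 1 of 138 members was called, or 0.725%, against 0.319% of all tested genes (0.185% higher and 0.134% lower). Groups did not overlap in 5 members, all lower with morphine, which is 3.62% against 2.38% of all tested genes. The called member was Zfp641, a KRAB protein with 5 fingers. It was read at 14.7, 13.4, 14.2, 15.5 and 13.9 CPM with saline and at 10.9, 9.13, 10.9, 11.2 and 10.1 CPM with morphine, without overlap, and fell by 0.46 ± 0.11 (SE; edgeR adjusted p = 0.0276). It was not called with no filter on low counts, when only the compared groups were fitted, with 3 or 6 surrogate variables, or without saline replicate 1 or 4 or morphine replicate 1, 2 or 5. Zfp950 and Zfp738 each stood at -0.13, with SEs of 0.10 and 0.08, given as a description because the saline libraries entered their choice.

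In adolescents on antibiotics, a comparison that shares its saline libraries with the comparison that chose the set and its morphine libraries with that of antibiotics under morphine, 2 of 138 members were called, both higher with morphine and without a KRAB A box. That is 1.45%, against 2.92% of all tested genes, of which 1.58% were higher and 1.34% lower. Groups did not overlap in 4 members, all lower with morphine, which is 2.9% against 4.09% of all tested genes. Zfp956 was read at 16.7, 16.8, 17.1, 16.5 and 18.5 CPM with saline and at 22.6, 26.9, 25.5, 23.9 and 18.3 CPM with morphine, where 1 morphine library, replicate 5, lay within the saline range. It rose by 0.45 ± 0.10 (SE; edgeR adjusted p = 0.00513). Zfp651 was read at 110, 115, 92.7, 101 and 118 CPM with saline and at 111, 131, 129, 130 and 124 CPM with morphine, and rose by 0.22 ± 0.06 (0.0476). Zfp651 was not called in 6 of 10 fits that left out 1 library, namely antibiotics-saline replicate 1, 3 or 4 or antibiotics-morphine replicate 2, 3 or 4, nor with no filter on low counts or when only the compared groups were fitted. Zfp950 stood at -0.32 ± 0.11 and Zfp738 at 0.04 ± 0.08, given as a description because their low values in the saline libraries chose them. Dnmt3a, the enzyme that places new DNA methylation, was the one silencing partner called, at 0.24 ± 0.07 (0.0389). The number of members called was 10 without antibiotics-morphine replicate 5, 5 with 3 surrogate variables and 0 with 6. Over all tested genes the fits without 1 library called 214 to 970, against 522 in the main fit. Nothing is read from these member counts. The oligodendrocyte markers summed to 1280 ± 221 CPM with saline and 1560 ± 266 CPM with morphine, with 6 of 6 values positive and none called. The nuclear-retained RNAs summed to 6110 ± 1080 and 7830 ± 1660 CPM, with none called, and the striatal markers to 126 ± 11.4 and 143 ± 5.57 CPM (SD, n = 5). Ppp1r1b (0.30 ± 0.09) was called higher and the endothelial marker Tek (-0.42 ± 0.12) lower. Their part in the zinc finger values was not tested.

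In adults, morphine called 0 members on water, where edgeR called 0.475% of all tested genes, and 0 on antibiotics, where it called 0.213%. DESeq2 called 0 in both, and 9 and 15 of 138 members had an unadjusted p under 0.05. Groups did not overlap in 3 of 138 members on water, beside 2.51% of all tested genes, and in 5 of 138 on antibiotics, beside 1.36%. On water the smallest p values belonged to Zfp821 (-0.28 ± 0.09, edgeR adjusted p = 0.152), which was called without morphine replicate 4, and to Zfp808 (1.51 ± 0.56, 0.259). On antibiotics they belonged to Zfp994 (-0.61 ± 0.18, edgeR adjusted p = 0.237) and, among positive values, to Zfp940 (0.32 ± 0.11, 0.397). Zfp950 stood at 0.13 ± 0.10 on water and -0.15 ± 0.10 on antibiotics, and Zfp738 at 0.16 ± 0.08 and 0.05 ± 0.08. The age differences of the morphine effects called 0 members on water and 0 on antibiotics, and edgeR called 0% of all tested genes in each. DESeq2 called 0 members in both, and 7 and 8 members had an unadjusted p under 0.05. The smallest p belonged to Zfp867 on water (0.69 ± 0.20, edgeR adjusted p = 0.215) and to Zfp956 on antibiotics (-0.55 ± 0.14, 0.351).

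The antibiotics effect under morphine minus that in saline uses, in adolescents, the comparison that chose the set, and is given there as a description. Zfp865 and Zfp956 had the smallest p among the members. Zfp865 was read at 42.4, 37.5, 41.8, 38.9 and 42.9 CPM on water and at 41.7, 44.1, 39.6, 40.1 and 37.5 CPM on antibiotics with saline, where the groups overlapped, and under morphine they did not, and its difference was 0.43 ± 0.10 (SE). Zfp956 had a difference of 0.53 ± 0.14, Zfp950 of -0.19 ± 0.14 and Zfp738 of 0.17 ± 0.11. The first pair were the 2 of 138 members past the threshold, beside 1.24% of all tested genes, 0.621% higher and 0.615% lower, and nothing is read from this count. The adult difference uses none of those libraries and was tested. There edgeR called 0 members and 0% of all tested genes, with 11 members at an unadjusted p under 0.05 and 0 called by DESeq2. The smallest p belonged to Zfp945, at -0.52 ± 0.16 (edgeR adjusted p = 0.501).

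**Figure D4:**
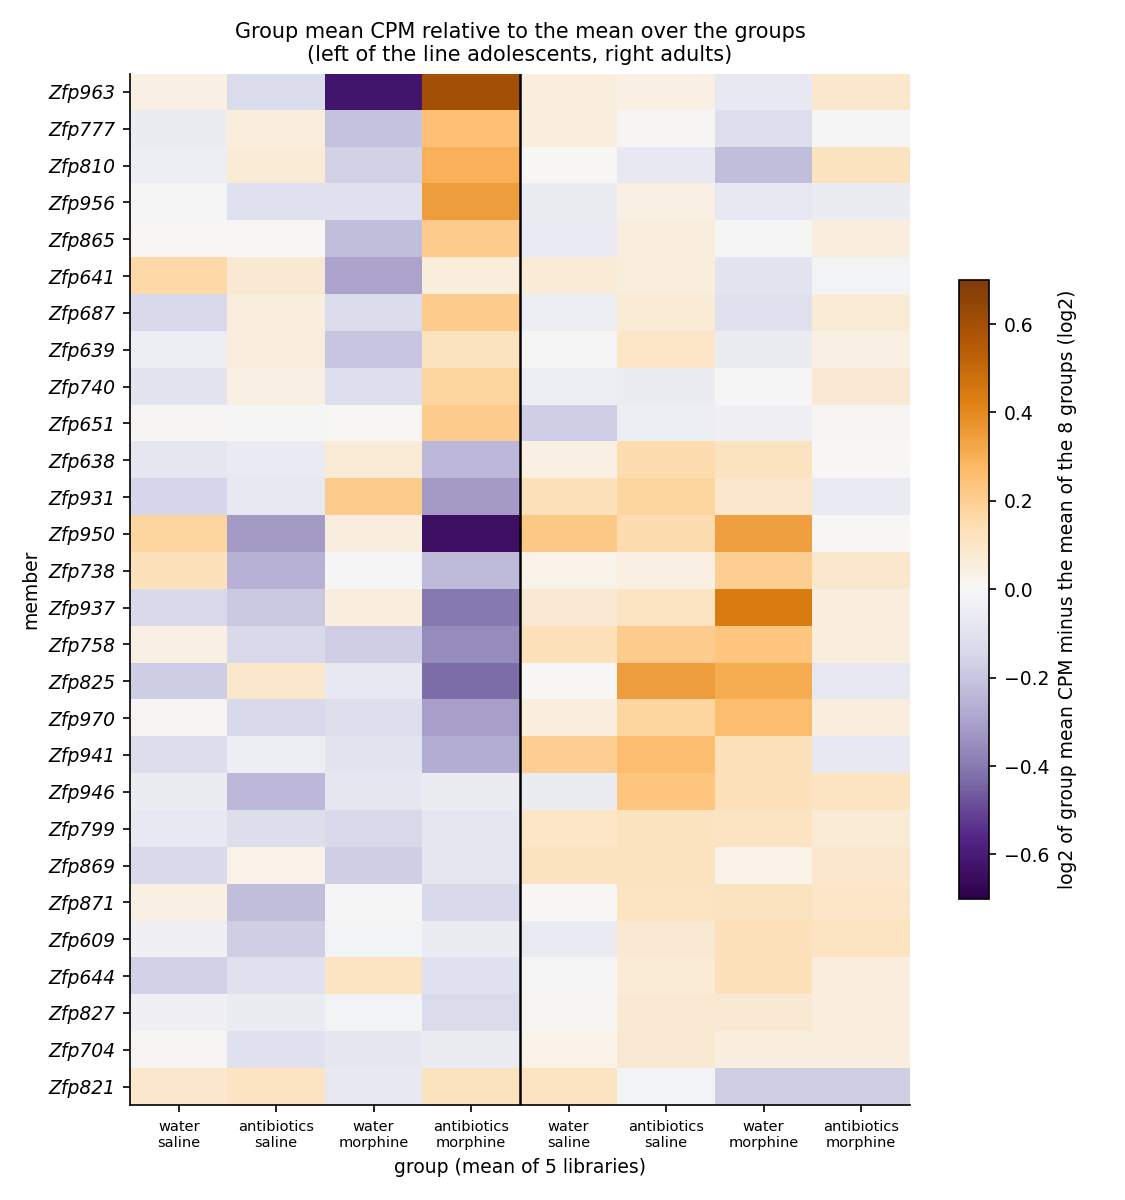
Group mean CPM (n = 5 libraries) of the members called in adolescents for antibiotics under morphine, of Zfp738 and of those called for age, as the log2 difference from the mean of the 8 groups (color scale). The adolescent antibiotics-morphine group, the fourth column, holds the lowest value of Zfp950 (-0.64) and the highest of Zfp963 (0.60), and most of the lower rows are paler or purple in adolescents and orange in adults.

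Adults and adolescents were compared over all treatments, as the mean of the 4 treatment-matched differences. Here 18 of 138 members were called, 16 higher and 2 lower in adults. The 16 include Zfp950 and Zfp738, whose low adolescent antibiotics-saline values chose them and enter this value. That is 13% of the members, against 17.9% of all tested genes, where 9.28% were higher and 8.57% lower. Of 87 tested KRAB members 11 were higher and 0 lower, and 67 had positive values. Of 51 without the box 5 were higher and 2 lower, and 29 were positive. Over all tested genes 9456 of 17880 were positive. The median log2 fold change was 0.07 among KRAB members, 0.03 among the others, 0.05 among the 187 tested genes Zfp1 to Zfp599 and 0.01 over all tested genes. The quartiles of the 138 members were -0.01 and 0.12. On water and saline the members with a KRAB A box summed to 1045 ± 16.2 CPM in adolescents and 1054 ± 17.4 CPM in adults. These lay within their SDs (n = 5). The sums were 992 ± 32.4 and 1091 ± 47.5 CPM in antibiotics-saline and 1012 ± 43 and 1092 ± 64.6 CPM in water-morphine. In antibiotics-morphine they were 994 ± 29.5 and 1067 ± 38.7 CPM. The age value is thus a mean over treatments with unlike differences.

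For Zfp950 and Zfp738 the age values are a description. Zfp950 was read at 15.2 to 36.8 CPM in 20 adolescent libraries (median 23.8) and at 23.6 to 36.1 CPM in 20 adult libraries (median 32.4). The log2 fold change was 0.36 ± 0.05 (SE). By treatment, adolescents and adults stood at 31.4 and 32.2 CPM in the water-saline groups, 28.7 and 35.1 CPM in water-morphine, 22.2 and 30.6 CPM in antibiotics-saline, and 17.8 and 27.7 CPM in antibiotics-morphine. The ages thus lay within their SDs on water and saline. Zfp738 had a log2 fold change of 0.18 ± 0.04 (SE), with 30.5 to 48.7 CPM (median 36.1) in adolescents and 35.0 to 53.3 CPM (median 42.9) in adults. On water and saline it stood at 43.1 CPM in adolescents and 40.4 CPM in adults, so that group had the opposite order.

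Zfp941, a KRAB protein with 9 fingers, had 17.6 to 30.0 CPM (median 23.9) in adolescents and 23.4 to 36.0 CPM (median 28.2) in adults. It rose by 0.26 ± 0.06 (SE; edgeR adjusted p = 0.000563), and its group means were higher in adults in each treatment, from 21.6 against 24.9 CPM on antibiotics and morphine to 23.9 against 30 CPM on water and saline. Zfp638 had 68.2 to 98.1 CPM (median 80.3) in adolescents and 79.3 to 110 CPM (median 90.0) in adults, and rose by 0.16 ± 0.03 (edgeR adjusted p = 0.000774). Zfp799 and Zfp871 lie in a run of 6 KRAB members on chromosome 17 whose 6 values were all positive, with a median of 0.07. Zfp799 rose by 0.20 ± 0.04 (edgeR adjusted p = 0.00099), from a median of 28.6 to 31.4 CPM, and Zfp871 by 0.16 ± 0.04 (0.00288), from 112 to 124 CPM. Zfp758 rose by 0.31 ± 0.08 (edgeR adjusted p = 0.0023), from a median of 7.38 to 8.65 CPM, and lies in another run of 14 KRAB members on chromosome 17, where 11 of 12 tested members were positive and 2 were called. Zfp869, on chromosome 8, rose by 0.18 ± 0.04 (edgeR adjusted p = 0.00136), from a median of 21.6 to 24.6 CPM. Adolescents and adults overlapped in all of these genes. On water and saline, as log2 differences from the mean of the 8 groups, Zfp871 stood at 0.04 in adolescents and 0.0 in adults. That is the opposite order, while the others named in this paragraph so far had higher means in adults there. The other 8 members called higher, named after their values were seen, were Zfp609, Zfp704, Zfp946, Zfp937, Zfp644, Zfp827, Zfp970 and Zfp825, with values from 0.11 ± 0.04 for Zfp827 to 0.33 ± 0.10 for Zfp937. Of these 8, on water and saline, Zfp609 stood at -0.03 in adolescents and -0.06 in adults, and Zfp946 at -0.05 in both. The rest had higher means in adults there. Both runs on chromosome 17 are named after their values were seen. Among the other runs of 4 or more members with tested genes, the median age value ran from -0.04 to 0.17. The lowest was the run from Zfp771 to Zfp689 on chromosome 7, with 1 of 6 values positive. The highest was that from Zfp970 to Zfp931 on chromosome 2, with 3 of 3 tested values positive.

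The 2 members lower in adults, both without a KRAB A box, were Zfp651 (-0.11 ± 0.03, edgeR adjusted p = 0.0145) and Zfp821 (-0.13 ± 0.04, 0.0349), named after their values were seen. On water and saline, as log2 differences from the mean of the 8 groups, Zfp821 stood at 0.09 in adolescents and 0.11 in adults. That is the opposite order, while Zfp651 stood at 0.01 and -0.17. Zfp651 had 92.7 to 131 CPM (median 114) in adolescents and 92.6 to 116 CPM (median 102) in adults. Among the 28 tested silencing partners 5 were higher in adults: Fam208a (0.16 ± 0.03), Atf7ip, a partner of Setdb1 (0.12 ± 0.03), the SUMO ligase Pias1 (0.12 ± 0.03), Zkscan1 (0.12 ± 0.04) and the chromatin remodeller Smarca4 (0.10 ± 0.03). Dnmt3a (-0.15 ± 0.03) and the remodeller Chd3 (-0.11 ± 0.03) were lower. Over all tested genes 9.28% were called higher and 8.57% lower, and nothing is read from the counts of this list.

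**Figure D5:**
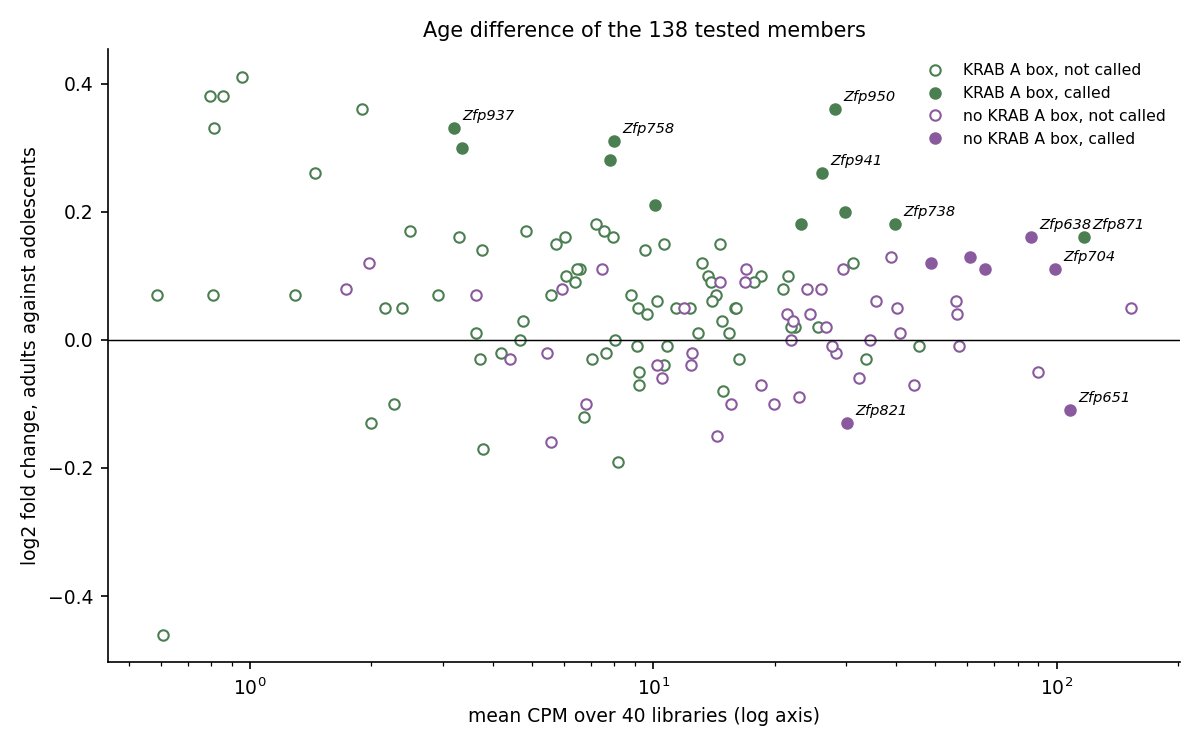
Log2 fold change of adults against adolescents (vertical axis) of the 138 tested members against their mean CPM over 40 libraries (horizontal log axis), green with and purple without a KRAB A box, filled where called. Of 87 KRAB members 67 lie above 0 and 11 are called, all above 0, while Zfp651 and Zfp821 are the called members below it. Over all tested genes 9.28% were called higher and 8.57% lower. Each value is a mean over all treatments.

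Oligodendrocyte markers moved with age in the other direction. All 6 were called lower in adults, with a median of -0.35, and their summed level was 1080 to 2040 CPM in adolescents against 755 to 1470 CPM in adults. Of 6 precursor markers 3 were lower, with sums of 240 to 376 CPM against 205 to 315 CPM. None of these markers was at 0, and their part in the zinc finger values was not tested. Zfp941, Zfp638, Zfp799, Zfp869, Zfp758 and Zfp871 each held their call in each of the 40 fits that left out 1 library. With 6 surrogate variables 0 members were called for age, and with 3 there were 4, of which 3 were higher. These counts stand without the share over all tested genes, and nothing is read from them.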

How the data were processed

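The deposited values are raw counts of reads per gene, in 1 table with no normalization. Build mm10, STAR 2.7.10a and DESeq2 (role not given) are named per the submitters' processing notes. Annotation and strand setting: not given in the sources used here. Rows naming no gene numbered 0. Identifiers were matched without version to GENCODE M21 symbols (52073, or 91.4%). Totals were 8636712 to 12098769 counts, so floors of 3 counts stand for 0.248 to 0.347 CPM and cover counting error only.

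Counts were fitted in R 4.3.3 with edgeR 4.0.16 (filterByExpr with minimum count 10 and total 15, TMM, robust quasi-likelihood, 1 coefficient per group, all 40 libraries), with two-sided F tests in 14 comparisons, Benjamini-Hochberg adjustment over 17880 genes and a threshold of 0.05. CPM are TMM-scaled. The SE is the log2 fold change divided by the square root of F. Alternatives were RLE size factors, no filter, DESeq2 1.42.0, only the compared groups, a replicate block, surrogate variables (sva 3.50.0) and leaving out each library. The scripts were tested on simulated data.

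Replicates differed by a chi-square per gene of 2.17 to 15.4 in 80 pairs, so none was treated as a duplicate. KRAB A boxes and C2H2 fingers were found by pattern in translated GENCODE transcripts, and promoters come from RefSeq.

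Members and lists were chosen with earlier results of these data known. Named were Zfp738 and Zfp950 throughout, up to 8 called members of smallest p per comparison, the smallest p of each sign where none was called, the 5 highest and 3 lowest members, called silencing partners and the 3 genes most like Zfp738 and Zfp950.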

Additional observations from a re-analysis of the deposited data

Results flagged for a closer look

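In 128 groups of 5 libraries (16 named members in 8 groups), 1 library stood apart from the others of its group by Dixon's criterion, which chance alone meets in about 1 in 20 groups. This was Zfp941 in adults on antibiotics and morphine, where replicate 1 was read at 28.9 CPM and the others at 23.4 to 24.3 CPM.

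In adolescents the antibiotics effect under morphine minus that in saline was 0.43 in Zfp865 and 0.53 in Zfp956 on the log2 scale, the 2 members past the threshold. The saline part of this difference is the comparison that chose the set, so the values are a description and not a test. Zfp865 did not pass in 5 of 20 fits without 1 library and Zfp956 in 14 of 20. With 3 surrogate variables the values were 0.35 and 0.22, and neither passed.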

How the results depend on the processing

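Over the 14 comparisons and 60 named values, RLE size factors, DESeq2 and the replicate block turned no sign, and no named call was lost or gained under them. DESeq2 called 4 members for the adolescent interaction, against 2. Fitting only the compared groups called 0 members for antibiotics in saline and 0 for morphine on water in adolescents, 1 for morphine on antibiotics and 1 for the interaction. With no filter on low counts there were 0 for adolescent morphine on water and 1 for morphine on antibiotics.

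With 6 surrogate variables 0 members were called in each comparison that had calls, namely antibiotics in saline, antibiotics under morphine, morphine on water, morphine on antibiotics and the interaction in adolescents, and age. The groups accounted for 15% to 55% of the variance of these variables. With 3, added after the data were seen (28% to 32%), the counts were 0 for adolescent morphine on water, 5 for morphine on antibiotics, 0 for the interaction, 1 for adult antibiotics under morphine and 4 for age. These counts stand without the share over all tested genes, and nothing is read from them.

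Leaving out 1 library gave 0 to 2 members for adolescent antibiotics in saline, 9 to 21 for antibiotics under morphine, 0 to 1 for morphine on water, 1 to 10 for morphine on antibiotics, 0 to 6 for the interaction, 16 to 21 for age and 0 to 1 for adult morphine on water. In the other 7 comparisons the number of members stayed at 0. Over all tested genes these fits called 0 to 13 for adolescent antibiotics in saline and 634 to 2263 for antibiotics under morphine. Morphine on water had 33 to 63, morphine on antibiotics 214 to 970 and the interaction 19 to 773. Age had 2804 to 3580 and adult morphine on water 30 to 153. Nothing is read from the member counts.

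Signs turned with 6 surrogate variables for Zfp687 (antibiotics under morphine, adolescents, -0.10), Zfp950 (adolescent morphine on water 0.06, adult antibiotics in saline 0.01, age difference of morphine on water -0.05), Zfp738 (adult antibiotics in saline -0.10, adult antibiotics under morphine 0.01, adult morphine on water 0.00, adult interaction 0.10, age -0.05) and Zfp871 (age, -0.08). With 3 they turned for Zfp738 in adolescent morphine on antibiotics (-0.03) and adult antibiotics in saline (-0.03). With no filter Zfp738 stood at 0.00 in adult antibiotics in saline. Without 1 library the values there ran from -0.04 to 0.05 for Zfp738 and from -0.12 to 0.01 for Zfp950, and reached -0.04 for Zfp738 in the age difference of morphine on antibiotics. The cause was not tested.

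The replicate numbers do not pair the samples: same-numbered libraries of 2 groups had deviations correlated between -0.10 and 0.12, and at most 5 of 10 libraries of a comparison correlated best with their own number. With the replicate block within age the counts were 2, 13, 1, 2 and 2 in the adolescent comparisons with calls, in the order above, and 20 for age. Depth limits the lowest members, where a few counts decide the fold change.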
